A study of Xenopus tropicalis with 192 samples.

Results

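The stretch described here holds 50 CpG sites on chromosome 3 of Xenopus tropicalis, of 6717 in the whole table. They are all the measured sites between positions 36654961 and 37482883 (v10.0 genome), from 5 kb before the gene rnf14.2 to 5 kb after the gene rnf14.3. The stretch was chosen by the measured correlation of its leading sites with age among adult frogs, so every correlation with adult age below is a description without a test. Methylation came from bisulfite sequencing of captured targets, in the hindlimb webbing of 187 adults and in 5 whole tadpoles. The frogs came from 34 tanks and 25 labelled strains of Nigerian background, some of them transgenic or knockout. Tank mates shared strain and, but for 1 frog of tank C317, age. The tadpoles of each age and the young cryga:GFP frogs had no tank name, and each set was counted as 1 tank. The 31 adults under 1 year were NIGERIAN F8 at 269 days (n = 19), SUPERMAN F8 at 332 days (n = 9) and Xtr.Tg(cryga:GFP)Grngr at 273 days (n = 3). The 22 oldest frogs, all Xtr.Tg(eef1a1:GFP)Krieg, were 3987 days old and came from 4 tanks. Between these ages were TYR at 547 days, tubb2b GFP at 547 and 2059, Xtr.Tg(CMV:Aequorin,GFP)NXR at 726 and 1337 and CMV MEM GFP at 841. Others were OLIG2 F1 at 899 days, WT Superman at 937, Xtr.Tg(otx2:GFP)Kellr at 1105 and 1532, sox3 F0 at 1300 and NXR 1111 at 1507. There were also gtpbp2 F1 KO at 1693 days, tlx3 F0 at 1937, Xtr.Tg(eef1a1:GFP)Krieg at 2523 and Xtr.Tg(cryga:GFP)Grngr at 3583. The Xtr.Et(eef1a1:GFP) strains were cenMead at 2860 days, psvbiMead and folMead at 2878, hbrMead at 3100 and johMead at 3188. The strains with CAGGS-SB10 and cryga:RFP in their labels were Mead at 2878 days, 7M8FMead at 3090 (tank A308) and 8FMead at 3301 (tank A337). The tadpoles were 3 of the strain Superman F9 WT at about 89 days and 2 ZBTB14 KO at about 177 days, so tadpole age, genotype and tank cannot be told apart. Nor can whole body and webbing be told apart from stage. The 3 young cryga:GFP samples carry tadpole in their names but are labelled hindlimb webbing, and they were placed with the adults. Each value is the fraction of reads that were methylated at a site, from at least 100 reads in every frog, and the depth behind single values is unknown beyond that minimum.

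rnf14 encodes a RING-in-between-RING E3 ubiquitin ligase, an enzyme that passes ubiquitin to other proteins. In human cells RNF14 was described as a coactivator of the androgen receptor and as a ligase that acts on proteins at stalled ribosomes. Methyl groups on CpG cytosines are copied to the new strand when DNA replicates, and in vertebrates most CpGs are methylated while many promoters are not. The frog genome carries several rnf14 copies on chromosome 3. rnf14.2 spans 36659961 to 36676311 and rnf14.3 spans 37433141 to 37477883 in the RefSeq annotation of UCB_Xtro_10.0. The copies rnf14.4 and rnf14.5 lie further along and no measured CpG lies within 5 kb of either. The label of a gene array fits only loosely, because p4ha2 (a collagen prolyl hydroxylase subunit), rad50 (DNA break repair), fgf1 (a growth factor), spry4 (an inhibitor of receptor tyrosine kinase signaling) and ndfip1 (an adaptor of ubiquitin ligases) lie between rnf14.2 and rnf14.3. None of the 50 sites lies inside those 5 genes. The reference used gives spans without strand or exons, so neither start sites nor introns are named here.

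The sites fell into 12 groups parted by more than 1 kb. Inside rnf14.2 there were 9 sites, and 2 more lay 177 and 214 bp past its end coordinate. Between 4941 and 27174 bp past that end there were 26 sites. Another 3 sites lay 14242 to 14303 bp past spry4, 3 lay 43 to 99 bp before the start coordinate of rnf14.3, and 7 lay inside rnf14.3. The nearest measured CpGs outside the stretch were 39822 bp before its first base and 633907 bp after its last. The study's probes, 120 bases each, were placed on CpGs whose methylation followed age in an earlier study of whole genomes. Of the 50 sites, 21 fell inside the 9 probes read for this stretch, and the rest lay outside those probes. Over the whole table, 3188 of 6717 sites were counted inside the probes read, so sites outside them were common. Sequences are shown for the probes that hold the sites the results turn on, in the direction of rising coordinates, with each measured CG in capitals.

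Past the end of rnf14.2, chr3:36676430-36676549, holding 36676488 and 36676525: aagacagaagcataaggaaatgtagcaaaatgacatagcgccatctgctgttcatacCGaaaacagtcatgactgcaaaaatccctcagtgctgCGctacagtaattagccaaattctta
Inside rnf14.2, chr3:36668936-36669055, holding 36668994: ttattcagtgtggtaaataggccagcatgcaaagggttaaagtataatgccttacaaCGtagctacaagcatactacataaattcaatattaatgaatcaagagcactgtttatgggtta
Inside rnf14.2, chr3:36662881-36663000, holding 36662939: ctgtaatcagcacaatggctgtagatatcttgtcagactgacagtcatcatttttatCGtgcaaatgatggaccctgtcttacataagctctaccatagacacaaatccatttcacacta
Inside rnf14.2, chr3:36666569-36666688, holding 4 sites of which 36666625 and 36666627 lie 2 bp apart: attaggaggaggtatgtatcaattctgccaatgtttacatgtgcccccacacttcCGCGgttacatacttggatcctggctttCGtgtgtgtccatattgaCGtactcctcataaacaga
Between the genes, chr3:36690128-36690247, holding 5 sites in a run of near repeats: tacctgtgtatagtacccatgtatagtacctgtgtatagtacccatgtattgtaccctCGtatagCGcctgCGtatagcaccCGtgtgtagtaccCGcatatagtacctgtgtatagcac
Inside rnf14.3, chr3:37457221-37457340, holding 37457232, 37457279 and 37457296: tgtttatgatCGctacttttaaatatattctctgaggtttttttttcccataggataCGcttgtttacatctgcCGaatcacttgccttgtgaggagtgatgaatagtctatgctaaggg

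The probe past the end of rnf14.2 holds 1 more CG, in lower case, for which the table has no value. No pair of the 9 probes shared a run of bases longer than 9, counting both strands.

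Most of the stretch was heavily methylated in adults. The adult median was over 0.85 at 33 sites, under 0.5 at 8 and between those limits at 9. Over the whole table, 8.25% of sites had an adult median under 0.5. The median over the 50 sites was 0.918, beside 0.898 over the whole table. Low sites were gathered at the genes. The site 36676525, just past rnf14.2, had an adult median of 0.0452 (lowest 0.0129, highest 0.100). Its neighbor 36676488, 37 bp away, had 0.436 (0.237 to 0.680). Before rnf14.3 the 3 sites 37433042, 37433079 and 37433098 had adult medians of 0.0274, 0.112 and 0.272. Inside rnf14.2, 36668994 had 0.328, 36663907 had 0.377 and 36662939 had 0.481. The sites between the genes were at 0.703 or more in the median adult.

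**Figure D1:**
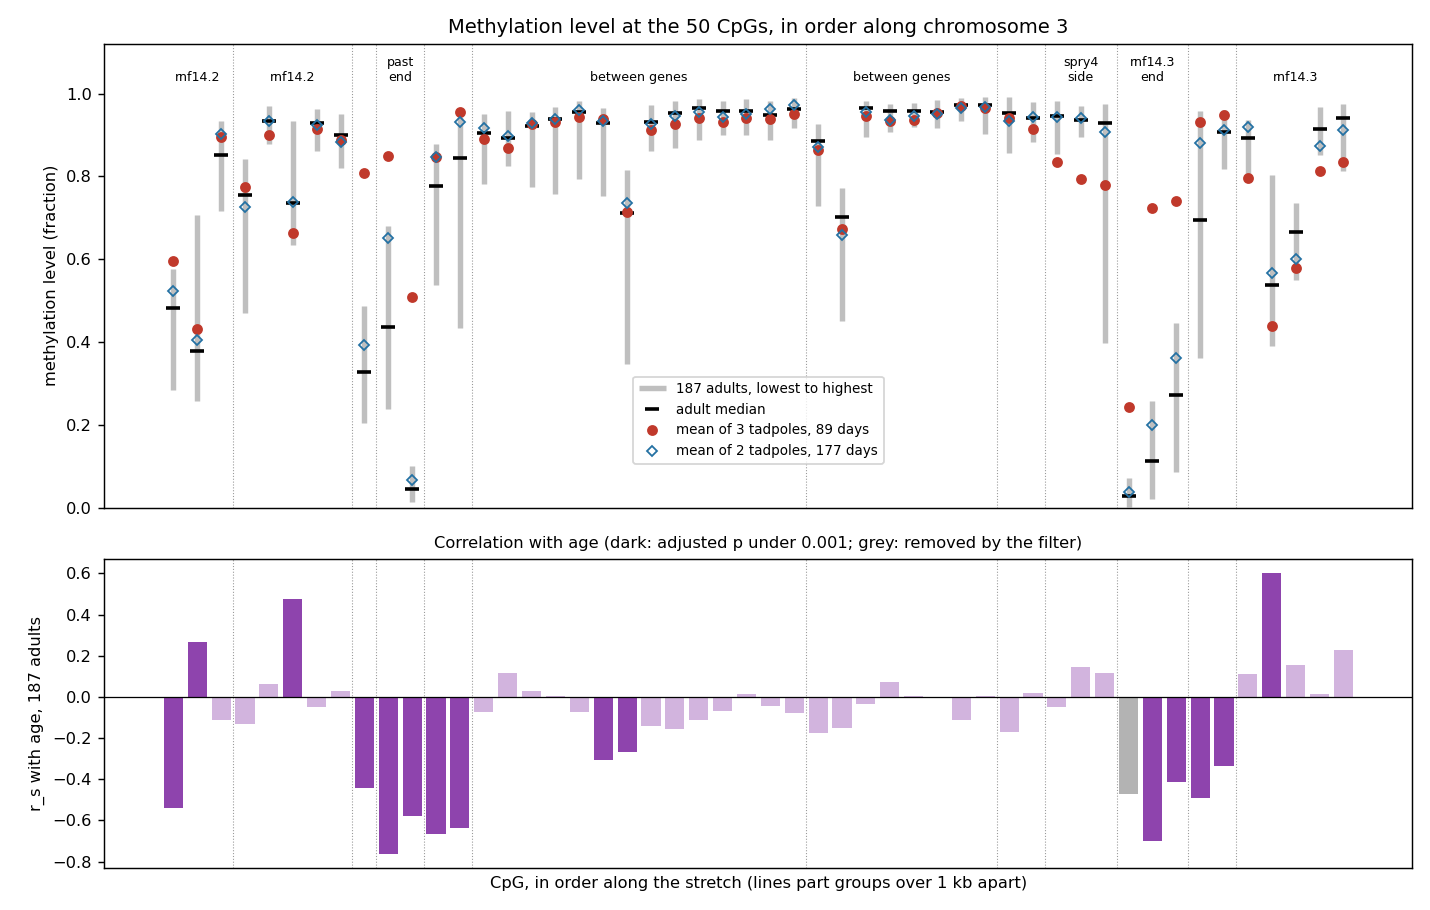
Methylation level (fraction, upper panel) and Spearman correlation with age over 187 adults (lower panel) at the 50 CpGs in order along the stretch. Grey bars run from the lowest to the highest adult, black dashes are adult medians, red points are means of the 3 tadpoles of 89 days and open diamonds means of the 2 tadpoles of 177 days. At 7 sites inside or beside the genes the tadpoles of 89 days lie above every adult, with 0.833 or more at the site 177 bp past rnf14.2.

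Among adults, the methylation level at 36676488 followed age more closely, in the negative direction, than at any of the 6175 sites left after filtering. Its Spearman correlation was r_s = -0.764, and Pearson's r was -0.735. The 31 adults under 1 year had a median of 0.593 (lowest 0.462, highest 0.680). The 42 adults of 1 to 3 years had a median of 0.49997 (0.325 to 0.648), and the 42 of 3 to 6 years 0.446 (0.304 to 0.593). From 6 to 9 years (n = 41) the median was 0.353, and over 9 years (n = 31) it was 0.391. The medians were therefore lower in each class up to 9 years and not beyond, and the ranges of neighboring age classes overlapped throughout. Of the 31 adults over 9 years, 22 were of 1 strain, Xtr.Tg(eef1a1:GFP)Krieg at 3987 days, so age and strain cannot be told apart in that class. The 22 oldest frogs had a mean of 0.378 ± 0.0483 (SD), beside 0.595 ± 0.0541 in the 31 youngest adults.

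Within single strains the picture was mixed. In Xtr.Tg(otx2:GFP)Kellr, 36676488 had a mean of 0.552 in 7 frogs of 1105 days and 0.412 in 7 of 1532 days, and the 2 sets did not overlap. In Xtr.Tg(cryga:GFP)Grngr it had 0.560 in 3 frogs of 273 days and 0.377 in 4 of 3583 days, again without overlap. In Xtr.Tg(eef1a1:GFP)Krieg the direction was the opposite, with 0.306 in 5 frogs of 2523 days and 0.378 in 22 of 3987 days, and the ranges overlapped. In the other 2 strains sampled at 2 ages the ranges overlapped as well, and 1 of the ages had a single frog. The ages of a strain came from different tanks, so age and tank cannot be told apart there, except in tubb2b GFP, whose 1 frog of 547 days and 5 of 2059 days shared tank C317. In Xtr.Tg(cryga:GFP)Grngr the younger frogs were on sequencing lane 2 and the older on lane 1, so lane cannot be told apart from age either. The Xtr.Tg(otx2:GFP)Kellr and Xtr.Tg(eef1a1:GFP)Krieg frogs were all on lane 1.

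The second most negative site of the stretch, 37433079, lies 62 bp before the start coordinate of rnf14.3, the other gene of the family in the stretch. It had r_s = -0.698. The adults under 1 year had a median of 0.183 (0.119 to 0.257), and those of 6 to 9 years 0.0836 (0.0213 to 0.120). Over 9 years the median was 0.102. Its neighbor 37433098 had r_s = -0.414, and 37433042 had -0.471. In Xtr.Tg(eef1a1:GFP)Krieg the direction at 37433079 was again the opposite. Its mean was 0.0735 in tank C410 (2523 days) and 0.0979 to 0.111 in the tanks of 3987 days.

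**Figure D2:**
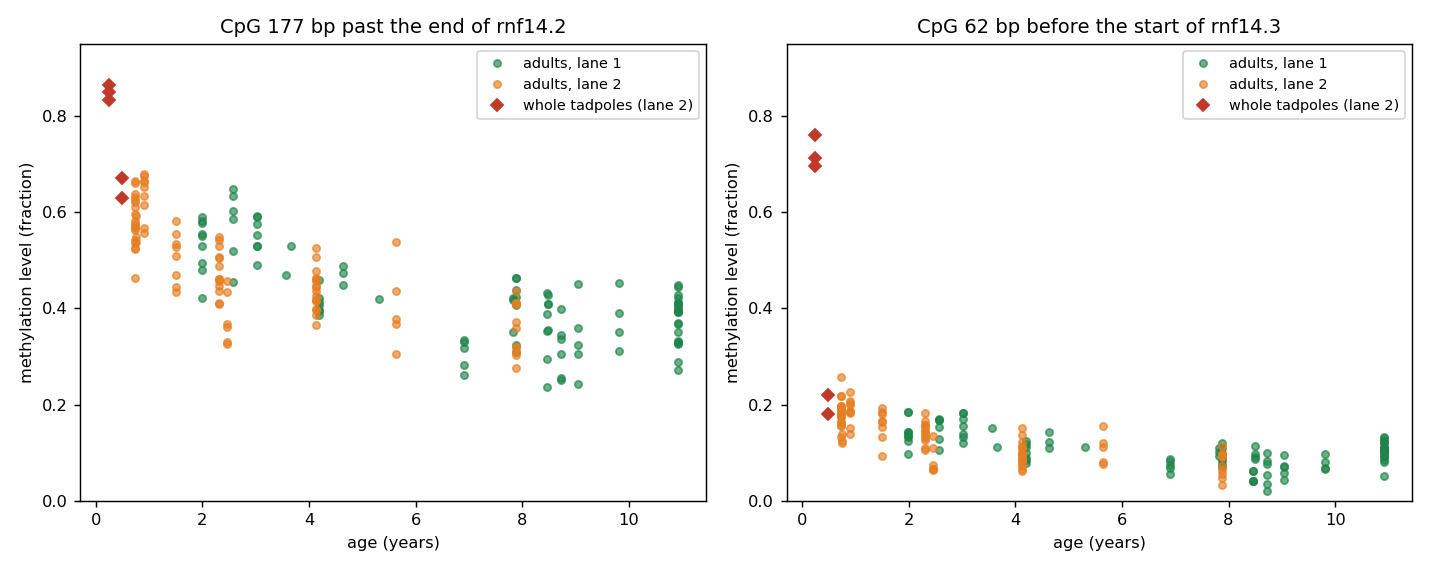
Methylation level (fraction) against age (years) for each frog at the CpG 177 bp past rnf14.2 (left) and the CpG 62 bp before rnf14.3 (right), with adults colored by sequencing lane and tadpoles as red diamonds. Levels are highest in the 3 tadpoles of 89 days and lowest among adults of 6 to 9 years, where the medians are 0.353 and 0.0836.

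Of the 49 sites of the stretch left by the filter, 12 passed an adjusted p under 0.001 in the negative direction (30.9% of all tested sites did) and 3 in the positive direction (5.18% of all did). These counts use the measure by which the stretch was picked and are given as a description only. Within Xtr.Tg(eef1a1:GFP)Krieg, 4 of the 12 negative sites were lower at 3987 than at 2523 days, and 0 of the 3 positive ones were higher. These counts were 11 and 2 in Xtr.Tg(otx2:GFP)Kellr and 11 and 3 in Xtr.Tg(cryga:GFP)Grngr. With a single frog at 1 age, they were 10 and 2 in tubb2b GFP and 7 and 1 in Xtr.Tg(CMV:Aequorin,GFP)NXR. The frogs of these strains were among the 187 adults that gave the 12 and 3 sites. No share of all sites is given beside the counts within strains, so they are a description only. The median r_s was -0.0674 over the 49 sites and -0.163 over all tested sites. After 36676488 and 37433079 the third most negative was 36681252 (r_s = -0.666), 4941 bp past rnf14.2, and its neighbor 36681341 had -0.634. The 3 positive sites lay inside the genes, at 37457279 in rnf14.3 (r_s = 0.6002) and at 36666627 (0.474) and 36663907 (0.265) in rnf14.2. Each stood next to sites of another sign or of almost none. The site 36666625, 2 bp from 36666627, had r_s = 0.0615, and 36663986, 79 bp from 36663907, had -0.114. Age and lane were tied, since lane 1 held 96 adults and lane 2 held 91, including all 31 under 1 year. Strain and tank were tied to age too. The sites 37457279, 36663907, 37433079 and 36681341 were among those that differed between the strains of young adults, compared below. Within lane 1, r_s was -0.622 at 36676488, -0.466 at 37433079, -0.367 at 36681252, 0.447 at 37457279, 0.531 at 36666627 and 0.409 at 36663907. Within lane 2 these values were -0.812, -0.791, -0.770, 0.541, 0.333 and 0.145. Over the means of the 32 tanks of adults, r_s was -0.801 at 36676488, -0.658 at 37433079 and -0.649 at 36681252. It was 0.584 at 37457279, 0.667 at 36666627 and 0.456 at 36663907. With 32 means in place of 187 frogs, 2 sites passed in place of 15. The share of all sites that passed over tank means is not given here, so that drop is not set against the whole table.

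Tadpoles of 89 days stood far above every adult at the low sites beside both genes. At 36676525 the 3 tadpoles of 89 days had 0.522, 0.468 and 0.534, while the highest of 187 adults had 0.100. The 2 tadpoles of 177 days had 0.0838 and 0.0494, inside the adult range. At 37433079 the tadpoles of 89 days had 0.714, 0.697 and 0.761 and those of 177 days 0.181 and 0.220, while the highest adult had 0.257. The same held at 37433098, where the lowest tadpole of 89 days had 0.728 and the highest adult 0.447. At 36668994, inside rnf14.2, the tadpoles of 89 days had 0.808, 0.804 and 0.815, the tadpoles of 177 days 0.385 and 0.399, and the highest adult 0.488. At 36676488 the values were 0.851, 0.833 and 0.865 at 89 days and 0.672 and 0.630 at 177 days, with a highest adult of 0.680. In all, 7 of the 50 sites had every tadpole of 89 days above every adult (10.4% of all sites did), and 3 had every one below (1.30% of all did). Some margins were very small. At 36662939 the lowest tadpole of 89 days had 0.579 and the highest adult 0.576. At 37333726 the highest tadpole of 89 days had 0.8541 and the lowest adult 0.8542.

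In the fit of all 5 tadpoles against the 31 adults under 1 year (limma on the log2 logit, in which a difference of 1 means a doubling of the ratio of methylated to unmethylated reads), 9 of 49 sites were higher in tadpoles (19.5% of all tested sites) and 16 were lower (19.4%), together 25 (38.8%), at an adjusted p under 0.05. The median difference was -0.203 over the 49 sites and -0.0665 over all sites. The largest rise was at 36676525, with 2.41 ± 0.36 (SE) on the log2 logit scale and an adjusted p of 3.58e-06. It was followed by 37433079 with 2.24 ± 0.33 and 37433098 with 1.64 ± 0.25. The largest falls were at 37333787 (-1.22 ± 0.23, adjusted p = 8.51e-05), 37457357 (-1.06 ± 0.17) and 37333726 (-1.02 ± 0.26). With the tadpoles of 177 days alone, the rises were 0.081 at 36676525, 0.205 at 37433079 and 0.240 at 37433098. The falls were then -0.319 at 37333787 and -0.430 at 37457357, and at 37333726 the difference was 0.24. At 37333726 it was -1.62 when the ZBTB14 KO tadpole at 0.981 was left out. At 37333787 the tadpoles of 89 days had 0.754, 0.774 and 0.808, those of 177 days 0.933 and 0.881, and the adults under 1 year a mean of 0.924 ± 0.018 (SD, n = 31). With tank as a block, 16 sites passed in either direction. Over tank means, 2 tanks of tadpoles stood against 3 of young adults, and no site of the stretch passed (0% of all sites did). In that fit 10 sites of the stretch had an unadjusted p under 0.05, as did 12.3% of all sites. The tadpoles of 177 days alone gave no call in the stretch (2.40% of all sites passed), and 11 of its sites had an unadjusted p under 0.05 (15.4% of all did). Those of 89 days alone gave 27 sites. Without the 3 young webbing samples named as tadpoles, 27 sites passed. No share of all sites is given beside these counts or the count with tank as a block, so they describe the stretch alone.

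The tadpoles were then compared with each other, a comparison chosen after their values were seen. Of the 49 sites, 5 were higher at 89 than at 177 days (11.7% of all tested sites) and 5 lower (4.7%), together 10 (16.4%). The higher ones were 36668994, 36676488, 36676525, 37433079 and 37433098, which are 5 of the 8 sites with an adult median under 0.5. The share of the low sites of the whole table that were higher at 89 days is not given here, so this count describes the stretch alone. Of the other 3, 37433042 was removed by the filter, and 36662939 (means of 0.596 and 0.523) and 36663907 (0.431 and 0.404) did not pass. The log2 logit difference was 3.88 ± 0.32 (SE, limma, adjusted p = 6.72e-05) at 36676525 and 3.39 ± 0.28 (adjusted p = 7.00e-05) at 37433079. The lower ones were the 3 sites past spry4 and 37457232 and 37457357 inside rnf14.3. No tank name was given for the tadpoles, and each age was treated as 1 tank.

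The filter for sites with separate levels removed 1 of the 50, 37433042, 99 bp before rnf14.3. A mixture of 3 components described its values better than 1 (a difference in BIC of 286) and its lowest value was 0.00167, under the limit of 0.006. The site 36676525 had a larger difference in BIC, 476, and stayed because its lowest value was 0.0129. At 37433042 the tadpoles of 89 days had 0.259, 0.243 and 0.229, those of 177 days 0.0354 and 0.0407, and the highest adult 0.0708. When no filter was used, 37433042 was higher in tadpoles by 1.89 ± 0.35 (SE, adjusted p = 5.87e-05).

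Tanks differed at these sites about as much as elsewhere. The share of variance between tanks, over 183 adults in the 28 tanks with at least 2, had a median of 0.408 over the 49 sites and 0.404 over all tested sites. It was highest at 36681341 (0.818), 36681252 (0.797) and 36676488 (0.796), sites within 4853 bp of each other that also follow age, so tank and age are both in these shares. At 36681341 tank means ran from 0.547 in tank A337 (3301 days) to 0.921 in tank A228 (332 days), beside a standard deviation within tanks of 0.0503. At 36676488 they ran from 0.306 in C410 (2523 days) to 0.634 in A228. The share was lowest at 36690369 (0.161), between the genes, where the adult median was 0.973.

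**Figure D3:**
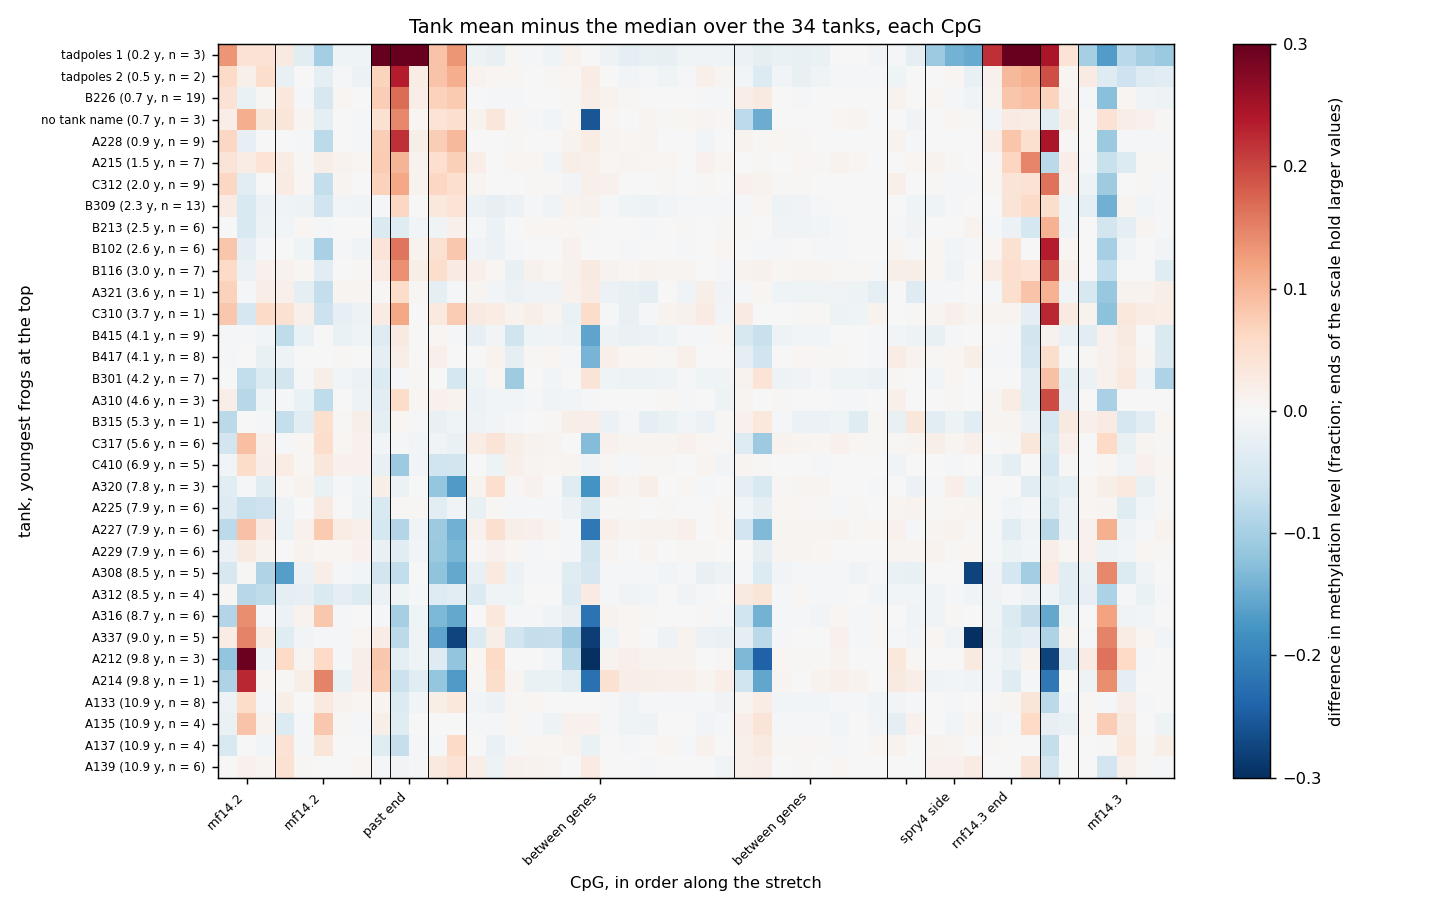
Tank mean minus the median over the 34 tanks (fraction, color) for each CpG in order along the stretch, with tanks from the youngest frogs at the top to the oldest at the bottom. The columns of 36676488, 37433079 and 37433098 are red in most tanks of young frogs and pale or blue in most of the older ones. The row of the tadpoles of 89 days is red just past the end of rnf14.2 and before rnf14.3, and blue past spry4. Single dark blue cells mark sites that differ in particular tanks, among them A337 and A308 at the site past spry4.

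Tanks of 1 age and strain were compared in 2 cases. Among the 4 tanks of the oldest frogs, 0 of 49 sites passed (limma F test, adjusted p under 0.05; 0.551% of all sites did), and 4 had an unadjusted p under 0.05 (18.8% of all did). The smallest was at 36686803, with tank means from 0.941 in A135 (n = 4) to 0.965 in A139 (n = 6) and an adjusted p of 0.0963. The next were 36686770, with means from 0.897 to 0.924 and an adjusted p of 0.175, and 36681341, with means from 0.820 to 0.880 and an adjusted p of 0.211. The 2 tanks of NXR 1111, both of 1507 days, did differ, and in 1 direction. Of the 49 sites, 10 were higher in tank B417 (n = 8) than in B415 (n = 9), beside 22.1% of all tested sites, and none was lower. At 36687583 the mean was 0.969 ± 0.010 (SD) in B417 and 0.9497 ± 0.0088 in B415, and at 36703485 it was 0.954 ± 0.018 and 0.926 ± 0.013. At 36687546 it was 0.942 ± 0.010 and 0.913 ± 0.021. The whole table moved with them, with 90.3% of all sites higher in B417 and a median level per frog from 0.895 to 0.912 there and from 0.855 to 0.905 in B415. The part of this shift in the calls of the stretch was not tested.

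The 3 strains of young adults differed at 9 of 49 sites (limma F test, adjusted p under 0.05; 9.81% of all sites did). Each strain was 1 tank of its own age, so strain, tank and age cannot be told apart here. At 36686867, 10556 bp past rnf14.2, the 3 cryga:GFP frogs had 0.452, 0.459 and 0.460, while the 19 NIGERIAN F8 frogs ran from 0.670 to 0.784 and the 9 SUPERMAN F8 frogs from 0.701 to 0.774 (adjusted p = 1.3e-11). At 36690194 they had 0.543, 0.544 and 0.562, beside 0.692 to 0.756 and 0.664 to 0.729 (adjusted p = 5.41e-10). Inside rnf14.3, at 37457279, they were the higher ones, with 0.643, 0.645 and 0.655 beside 0.423 to 0.531 and 0.480 to 0.516 (adjusted p = 4.81e-09). The cryga:GFP frogs did not overlap with the other 2 strains at any of these 3 sites, while NIGERIAN F8 and SUPERMAN F8 overlapped at all 3. Without the 3 cryga:GFP frogs, 1 site still differed, and the share of all sites in that fit is not given here. The site was 37453585 inside rnf14.3, where SUPERMAN F8 ran from 0.916 to 0.957 and NIGERIAN F8 from 0.609 to 0.932, with overlap. That site was also high in the 6 adults of WT Superman at 937 days (0.903 to 0.935) and in the Superman F9 WT tadpoles (0.926 to 0.937). High levels were not limited to these strains, with medians of 0.934 in 9 Xtr.Tg(CMV:Aequorin,GFP)NXR frogs of 726 days (0.614 to 0.952) and 0.927 in 3 gtpbp2 F1 KO frogs (0.782 to 0.942).

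Following these sites through the other strains showed lower and higher levels, within some strains and between others. This was looked for after the values were seen and carries no test. At 36686867, 46 of 187 adults were below 0.6, and they came from 10 of the strains. All 7 cryga:GFP frogs were among them, the 4 of 3583 days with 0.346 to 0.490 as well as the 3 of 273 days. So were all 5 frogs of tank A337, all 6 of Xtr.Et(eef1a1:GFP)johMead and all 6 of Xtr.Et(eef1a1:GFP)psvbiMead, while none of the 22 oldest frogs was. Of the 17 NXR 1111 frogs, 9 were below 0.6. Of the 11 sets of 1 strain and age with any frog below 0.6, 6 were wholly below it. The widest gap between adults at this site ran from 0.563 to 0.637. In the 46 frogs the median at 36690194, 3327 bp away, was 0.564, and in the other adults it was 0.715. At 37333787, past spry4, 6 adults lay between 0.397 and 0.478 and all other adults between 0.886 and 0.976, with no adult between. The 6 were 3 of the 5 frogs of A337 and 3 of the 5 of A308, and the other 4 frogs of those tanks had 0.886 to 0.940. At 37333775, 12 bp away, the 6 frogs had 0.896 to 0.945, inside the range of all adults.

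**Figure D4:**
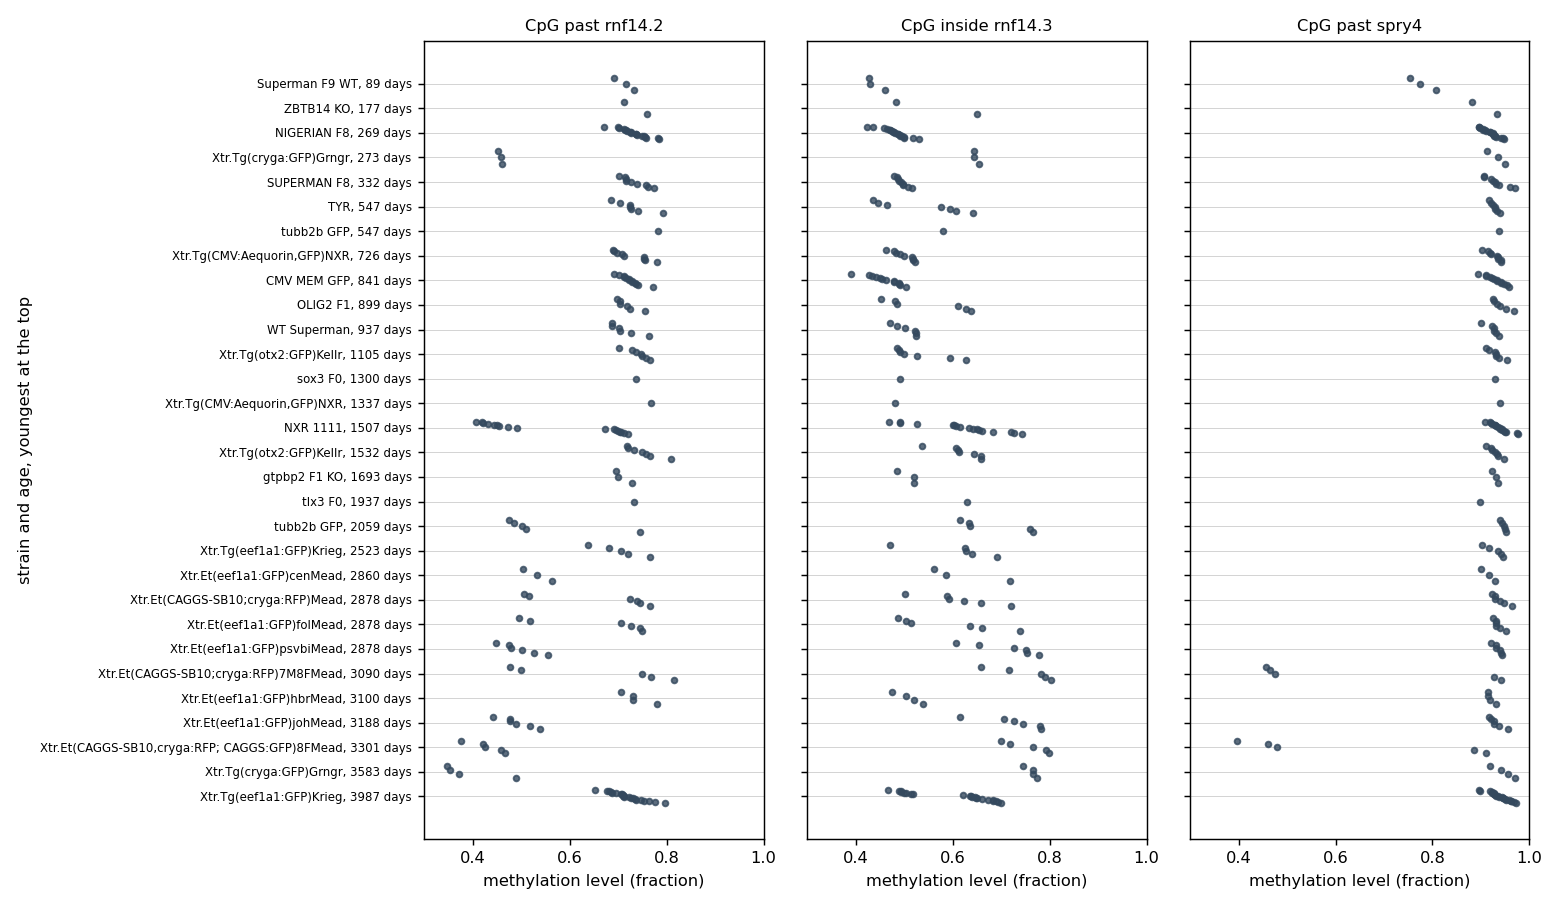
Methylation level (fraction) of every frog at 3 CpGs, by strain and age from the youngest at the top, at the CpG 10556 bp past rnf14.2 (left), 1 inside rnf14.3 (middle) and 1 past spry4 (right). The left panel shows 46 adults below 0.6, including all 7 cryga:GFP frogs, and the right panel shows 6 frogs of 2 strains at 0.397 to 0.478 with all other adults at 0.886 or above.

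Adjacent CpGs were compared within tanks, using each frog's deviation from its tank mean, which removes strain and, in every tank but C317, age. Of the 35 neighboring pairs at most 500 bp apart, 33 had a positive Spearman correlation over 183 adults, with a median of 0.334, beside 0.411 over 4030 such pairs of the whole table. Pairs at most 20 bp apart had a median of 0.467 (20 pairs) and those 21 to 100 bp apart 0.232 (14 pairs), beside 0.475 and 0.337 over the table. Neighboring sites can be read on the same molecules, and these values are descriptions. The highest values were between 36690187 and 36690194, 7 bp apart in the run of near repeats (0.749), 37433079 and 37433098 before rnf14.3 (0.636) and 36681252 and 36681341 (0.606). The lowest were between 37457279 and 37457296, 17 bp apart inside rnf14.3 (-0.185), 36666509 and 36666625 (-0.0252) and 36687624 and 36687687 (0.0892). The leading pair past rnf14.2, 36676488 and 36676525, had 0.297 within tanks and 0.701 when tank means were kept.

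**Figure D5:**
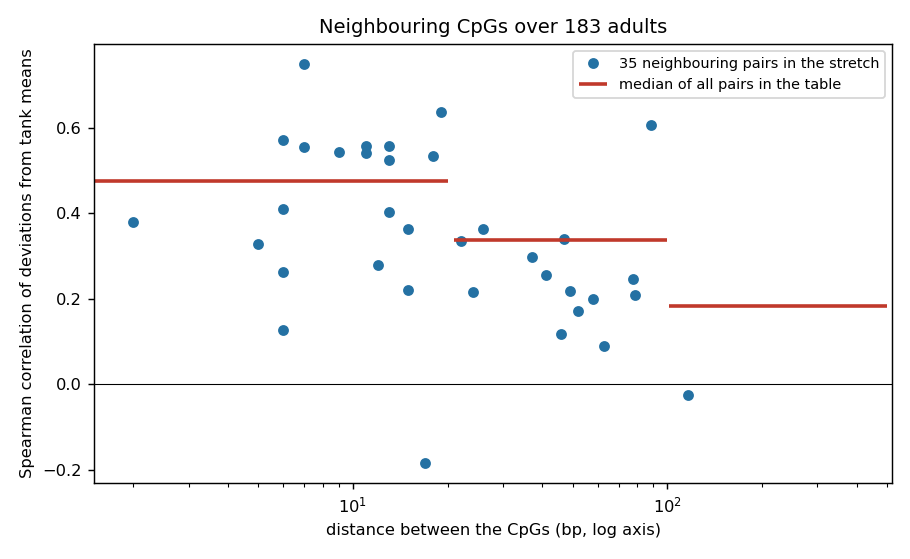
Spearman correlation of deviations from tank means over 183 adults against the distance between neighboring CpGs (bp, log axis), with 1 point for each of 35 pairs in the stretch and red lines for the median of all pairs of the table in 3 classes of distance. Of the 20 pairs within 20 bp, 1 falls below 0, at -0.185.

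Some sites of rnf14.2 and rnf14.3 were also correlated within tanks over long distances, in both directions. Over 1027 pairs of sites more than 1 kb apart the median correlation was 0.0598. The highest was 0.6503 between 36662939 in rnf14.2 and 37453585 in rnf14.3, 790646 bp apart, and 36666627 and 36663907 in rnf14.2 had 0.617 and 0.606 with 37457279 in rnf14.3. The site 36662939 had -0.528 with 36666627 in its own gene. Across the genes, 36662939 had -0.527 with 37457279, and 36666627 had -0.520 with 37453585. Such values were not particular to the stretch. Of its 444 pairs between 500000 and 1000000 bp apart, 1.13% went beyond 0.5 in either direction, beside 1.89% of the other pairs of the table at those distances.

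Over the means of all 34 tanks, tadpoles included, the sites most like 36676488 were in the stretch itself, 36676525 (Spearman correlation 0.900) and 37433079 (0.882). Outside it the 5 closest were Chr6:66075538 (0.834), Chr1:32298887 (0.826), Chr5:32153935 (0.826), Chr3:53115546 (0.824) and Chr6:88833178 (0.821). The last but 1 lies inside mettl25, and the others lie 3886 to 64049 bp from the nearest gene. These means share ages and lanes, which bears on all of the correlations. The stretch was also picked by the correlation of its leading sites with age, so likeness within it is a description only. Of 15 genes for other RING-in-between-RING ligases and their partners, 14 were found in the annotation by symbol, and none of those 14 had a measured CpG within 5 kb.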

How the data were processed

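The authors trimmed reads with fastp, used BiSulfite Bolt for alignment against v10.0 and deposited 1 table of methylation fractions (0 to 1), keeping CpGs covered by at least 100 reads in all 192 frogs. Tanks and lanes came from the study's sample sheet. Sites were removed when a Gaussian mixture of 3 components improved BIC by more than 90 over 1 and the lowest value was under 0.006 (6175 of 6717 left). Spearman correlations with age used 187 adults, Benjamini-Hochberg adjustment over 6175 sites and a threshold of 0.001. Group comparisons used limma 3.58.1 in R 4.3.3 on log2((fraction + 0.001)/(1 - fraction + 0.001)), adjusted over the same sites, at 0.05. The filter, the correlations and the limma fits were tested on simulated data. Frogs of a tank count as replicates although they share a tank. Sites were assigned to genes by RefSeq spans (UCB_Xtro_10.0). Named were the 3 sites most extreme in each direction or of smallest p in each comparison, the 3 largest tank shares, the 3 highest and lowest neighboring pairs, the removed site, the 5 most alike sites outside, and others chosen after their values were seen. The comparison between tadpole ages and the fits without the 3 webbing samples named as tadpoles were added after seeing the data. The members and lists were chosen with earlier results of these data known.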

Additional observations from a re-analysis of the deposited data

Results flagged for a closer look

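In 38 sets of 4 to 10 frogs, 4 held 1 frog far from the rest, where chance gives about 1 set in 20. Some sets hold the same frogs at another site, so the sets are not independent, and their number was not tested. At 36676488, past the end of rnf14.2, 1 of 6 frogs of Xtr.Et(CAGGS-SB10;cryga:RFP)Mead had 0.310, below the others, and 1 of 6 frogs of Xtr.Et(eef1a1:GFP)psvbiMead had 0.412, above the others. In tank A133 of the oldest frogs (n = 8), 1 frog had 0.939 at 36686803 and 1 had 0.792 at 36681341, each below the rest of its tank.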

How the results depend on the processing

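The counts in this section are of the stretch alone, without shares of all sites beside them. In the stretch, 15 sites passed in the correlation with age, 2 over tank means and 8 in lane 1 alone, while the other alternatives, lane 2, no filter, Pearson, a threshold of 0.05, and leaving out the 22 oldest frogs among them, gave 14 to 18. The comparison of tadpoles gave 25 sites, 16 with tank as a block, 0 over tank means and 0 for the tadpoles of 177 days, and 19 to 28 without each tadpole in turn. The fall at 37333726 turned to a difference of 0.24 with the tadpoles of 177 days alone, and the other named differences kept their sign but were smaller. For the 2 tanks of NXR 1111, 10 sites became 5 on fractions. For the 3 young strains, 9 sites became 1 without the 3 frogs of cryga:GFP, and 7 to 9 without 1 of them. The oldest tanks gave 0 under every alternative run. The median correlation of neighbors (0.334) ran from 0.334 to 0.360 and the median share of variance between tanks (0.408) from 0.404 to 0.424. The fits without those 3 frogs, and the comparison between tadpole ages (10 sites, 7 to 10 without each tadpole), were chosen after seeing the data. No paired analysis was possible because no replicate number pairs frogs across groups. Depth per value is unknown beyond 100 reads.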
